A study of Mus musculus with 8 samples.

Results

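Genes for the haemoglobin chains and the membrane proteins of the red blood cell were followed, 9 genes of the 24171 named on the arrays. They were chosen by the gene name that the array files give, and matched 16 of 44170 features. The globin genes are Hba-a1, Hbb-b1 and Hbb-b2. The membrane and blood group genes are Slc4a1, Ank1, Rhd, Rhag, Kel and Ermap. Each gene is described by its brightest feature, taken from the mean of the 8 log2 values, and the remaining features follow after it.

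RNA labelled as spleen came from 4 knockout mice that lack the microRNA miR-155 and from 4 wildtype mice, and each RNA sample was labelled with Cy3 and hybridised to its own 1-colour NimbleGen expression array. The knockout animals are Mim1-5 and Mim1-6, labelled female, and Mim2-2 and Mim2-3, labelled male. The wildtype animals are WT-1 and WT-3, labelled female, and WT-2 and WT-4, labelled male. The sources used here give no strain, age or knockout allele. Levels are log2 of the deposited RMA intensity, and a set of 5000 random probes, which stood at log2 4.94 to 5.24, marks the background.

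Red blood cells arise from erythroblasts, which the mouse spleen holds in its red pulp beside old red cells awaiting removal. Erythroblasts fill with haemoglobin, made of alpha chains from Hba-a1 and its neighbour and beta chains from Hbb-b1 and Hbb-b2. Their membrane is built around band 3, the anion exchanger encoded by Slc4a1, which ankyrin, the product of Ank1, ties to the spectrin skeleton. Rhag, an ammonia channel, and Rhd form the Rh complex, while Kel is a surface endopeptidase and Ermap a butyrophilin-like protein. In humans the surface proteins among these, which do not include ankyrin, carry blood group antigens. GATA1 and KLF1 switch on many of these genes in erythroblasts, through DNA motifs with the core GATAA and CACCC.

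The labels were set against genes that bear on them. The feature of BIC, the precursor transcript of miR-155, read 7.51, 5.37, 5.28 and 5.46 in knockout animals Mim1-5, Mim1-6, Mim2-2 and Mim2-3 and 5.27, 4.84, 4.85 and 5.63 in wildtype animals 1 to 4, and stood highest in Mim1-5. Whether its probes lie within the deleted stretch is unknown, so the feature tests nothing about the genotype. Xist, an RNA of the inactive X chromosome, averaged 9.95 on arrays labelled male and 10.13 on arrays labelled female, and the Y-linked gene Ddx3y averaged 7.76 and 7.82, so neither gene told the labelled sexes apart. Ddx3y divided the genotypes instead, with 8.83, 8.39, 8.78 and 8.66 in the knockout and 7.25, 7.33, 6.82 and 6.26 in the wildtype, all above the random probes. Xist averaged 9.52 in the knockout and 10.56 in the wildtype, with overlap. The labelled sexes are therefore not borne out by these genes, which bears on each difference given below by genotype or within a labelled sex. In the knockout, labelled sex and the prefix of the animal name, Mim1 or Mim2, are the same split and cannot be told apart. Below, female, male and sex refer to the labels alone. The arrays of Mim2-2 and Mim2-3 also stood apart over all features, since their best correlation with any array was 0.877 and 0.874, and that of each remaining array 0.933 to 0.943. The marker lists for B cells, T cells and red pulp macrophages exceeded the random probes on all 8 arrays in every gene. So did 9 of 12 genes of a mammary epithelium list, a tissue that the labels do not name. The milk protein gene Csn2 read 13.67, 12.16, 8.22 and 13.90 in the knockout and 15.35, 15.35, 15.41 and 14.90 in the wildtype, near the top of the scale, and the epithelial keratin gene Krt18 read 10.46 to 14.40 in the knockout and 13.47 to 14.52 in the wildtype. These levels go against a sample of spleen alone, and the source of this RNA was not tested.

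The promoter stretches that RefSeq holds for 5 of the 9 genes are shown so that both motif cores can be looked for in them. Of these, Rhd and Kel are also among the genes that read lowest in Mim1-5 and Mim1-6, as given below, and Hba-a1, Rhag and Ermap are not. Each is the 250 bases before the annotated start in assembly GRCm38.p6, 5′ to 3′ on the strand of the gene. Capitals mark GATAA and CACCC, on the strand shown or, read as TTATC and GGGTG, on the other. The stretch of Hba-a1 lies at chr11:32283422-32283671 on the plus strand, Rhd at chr4:134864286-134864535 on the plus strand, Rhag at chr17:40810899-40811148 on the plus strand, Kel at chr6:41704326-41704575 on the minus strand and Ermap at chr4:119189996-119190245 on the minus strand.
Hba-a1: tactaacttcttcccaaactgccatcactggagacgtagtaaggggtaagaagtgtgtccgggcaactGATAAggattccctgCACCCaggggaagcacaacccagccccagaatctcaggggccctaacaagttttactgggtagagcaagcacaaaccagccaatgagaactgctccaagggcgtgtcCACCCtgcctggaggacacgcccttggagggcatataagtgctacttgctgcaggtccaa
Rhd: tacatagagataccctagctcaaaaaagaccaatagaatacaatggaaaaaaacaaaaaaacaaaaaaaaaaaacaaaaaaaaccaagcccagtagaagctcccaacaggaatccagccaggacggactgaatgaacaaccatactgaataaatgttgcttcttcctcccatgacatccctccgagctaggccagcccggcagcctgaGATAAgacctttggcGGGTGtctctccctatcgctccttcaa
Rhag: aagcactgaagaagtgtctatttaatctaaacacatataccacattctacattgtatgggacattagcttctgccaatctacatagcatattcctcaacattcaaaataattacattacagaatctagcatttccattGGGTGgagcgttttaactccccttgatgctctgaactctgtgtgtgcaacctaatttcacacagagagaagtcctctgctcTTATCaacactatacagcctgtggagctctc
Kel: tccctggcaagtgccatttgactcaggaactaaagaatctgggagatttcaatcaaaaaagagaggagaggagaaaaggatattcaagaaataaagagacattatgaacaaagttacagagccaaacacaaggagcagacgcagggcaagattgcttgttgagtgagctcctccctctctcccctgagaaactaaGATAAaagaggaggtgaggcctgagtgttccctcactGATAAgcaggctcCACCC
Ermap: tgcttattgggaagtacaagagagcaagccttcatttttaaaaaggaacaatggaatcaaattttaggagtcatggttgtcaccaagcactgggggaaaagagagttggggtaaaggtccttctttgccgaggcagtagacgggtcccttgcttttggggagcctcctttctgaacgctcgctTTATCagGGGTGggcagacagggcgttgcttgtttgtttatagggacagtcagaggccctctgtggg

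A GATAA core was found in 5 of these 5 stretches, where 22.6% of all 32851 RefSeq mouse promoter stretches of that length hold one. A CACCC core was also found in 5 of 5, where 52% of all stretches hold one. The motifs did not overlap each other. In Kel, GATAA stood 55 and 18 bases before the start, counted at its first base, and CACCC ended 1 base before it. In Rhd the GATAA began 42 bases before the start, in Rhag 31, in Ermap 67 and in Hba-a1 182. Both motifs were picked as textbook erythroid motifs after these sequences had been seen, and a match describes the letters alone. The microRNA that the knockout is labelled to lack is shown because it defines the groups, on chromosome 16, with its seed, bases 2 to 8, in capitals.
mmu-miR-155-5p: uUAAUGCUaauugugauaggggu

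No gene of the set passed between knockout and wildtype, and Hbb-b2, Slc4a1, Ank1, Rhd and Kel read lowest in the same pair of knockout animals, Mim1-5 and Mim1-6. In limma 0 of 9 genes had an adjusted p under 0.05, and the background was 0% of 44170 features. At an unadjusted p under 0.05, 2 of 9 were lower in the knockout, Hbb-b2 and Ank1, where 6.62% of genes were. In these 5 of 9 genes both knockout females lay below the other 6 arrays, which held for 3.48% of all 24171 genes. Counting genes in this way was not among the planned comparisons and carries no test. Over features the count was 12 of 16, against 3.26% of all features, though features of 1 gene measure the same transcripts. In 0 of 9 genes did every knockout array lie below every wildtype array, which held for 2.56% of genes. In bulk tissue, fewer erythroid cells and less of the transcript per cell cannot be told apart.

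**Figure D1:**
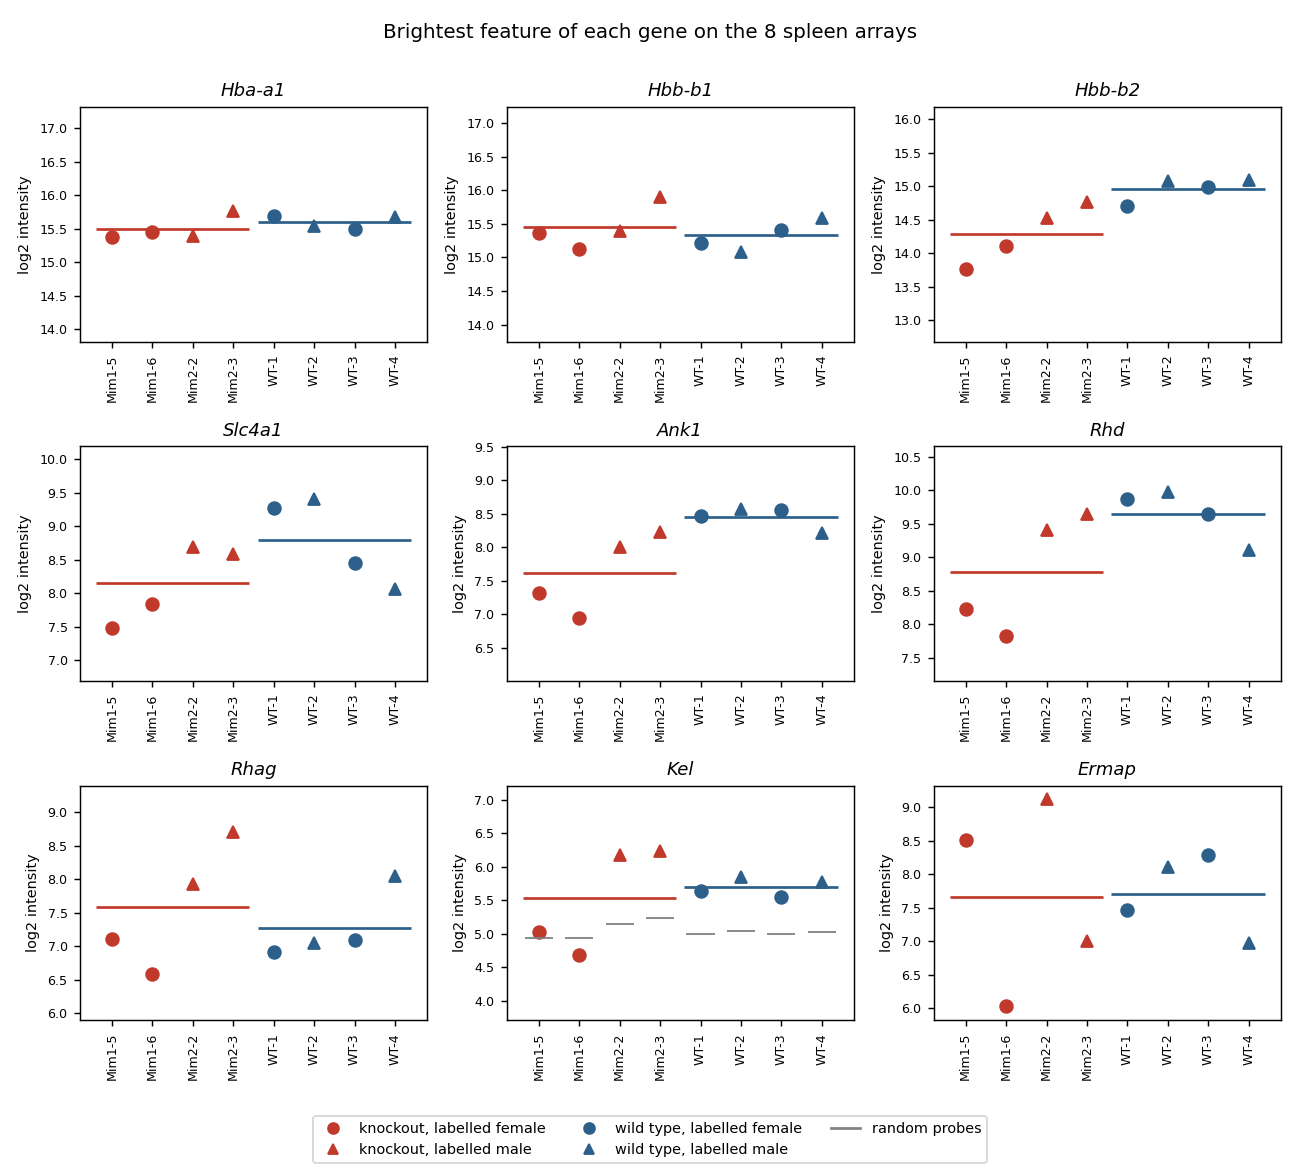
Log2 intensity (vertical axes, all of the same span) of the brightest feature of each gene on the 4 knockout and 4 wildtype arrays (horizontal axes). Circles are arrays labelled female, triangles arrays labelled male, horizontal lines the group means, and short grey lines the random probes, which fall within the frame of Kel only. The circles of the knockout, Mim1-5 and Mim1-6, are the lowest points for Hbb-b2, Slc4a1, Ank1, Rhd and Kel.

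The 3 globin genes were among the brightest signals on the arrays. Hba-a1, the alpha chain, on chromosome 11 from 32183691 to 32184486 in build MM9, which all gene positions from here on use, read 15.37, 15.45, 15.39 and 15.76 in knockout animals Mim1-5, Mim1-6, Mim2-2 and Mim2-3, against 15.69, 15.54, 15.49 and 15.67 in wildtype animals 1 to 4. The genotypes overlapped, and the whole range was 0.39. The difference was -0.10 with a 95% confidence interval of -0.69 to 0.49 (limma, adjusted p = 0.885). Hbb-b1, the adult major beta chain, read 15.36, 15.12, 15.40 and 15.91 in the knockout and 15.22, 15.08, 15.41 and 15.59 in the wildtype. Its highest value was that of Mim2-3 and its lowest that of WT-2, and the difference of 0.12 had an interval of -0.53 to 0.77 (limma, adjusted p = 0.877).

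Both of these features were close to the top of the scale. The brightest feature of any kind stood at 15.84 to 15.99 on the 8 arrays. Hba-a1 lay 0.14 to 0.60 under it, and Hbb-b1 lay up to 0.89 under it and was itself the brightest on the array of Mim2-3. The deposited tables hold no mark for saturated spots, so a change of these transcripts upward could be understated, which was not tested.

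Hbb-b2, the adult minor beta chain, on chromosome 7 from 110961037 to 110962417, was the globin gene with the largest difference of the 3. It read 13.77, 14.11, 14.52 and 14.76 in the knockout and 14.70, 15.07, 14.99 and 15.09 in the wildtype. All the knockout values except that of Mim2-3 lay below every wildtype value, and the knockout females were the lowest of the 8. The means were 14.29 ± 0.44 in the knockout and 14.96 ± 0.18 in the wildtype (SD, n = 4 each), 1.59-fold lower in the knockout, with a difference of -0.67 and an interval of -1.29 to -0.06 (limma, adjusted p = 0.336). It lay 0.86 to 2.20 under the brightest feature. The file places Hbb-b1 from 110961171 to 110962384, inside the stretch of Hbb-b2, and both globin pairs are near-identical copies, so their probes may not tell the copies apart.

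Slc4a1 and Ank1, band 3 and its anchor, were lowest in the knockout females. Slc4a1, on chromosome 11 from 102210138 to 102226435, read 7.48, 7.85, 8.70 and 8.59 in the knockout against 9.28, 9.41, 8.45 and 8.06 in the wildtype. The wildtype itself split, with WT-1 and WT-2 high and WT-3 and WT-4 below both knockout males. The difference was -0.65 ± 0.41 (SE), within an interval of -1.57 to 0.28 (limma, adjusted p = 0.502). Ank1, on chromosome 8 from 24249501 to 24260968, read 7.32, 6.94, 8.01 and 8.23 in the knockout and 8.46, 8.57, 8.56 and 8.21 in the wildtype. The wildtype animals lay within a narrow band, which only Mim2-3 of the knockout entered. Means were 7.62 ± 0.60 and 8.45 ± 0.17 in knockout and wildtype (SD, n = 4 each), 1.77-fold lower in the knockout (difference -0.83, interval -1.56 to -0.10, limma adjusted p = 0.328).

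The 2 Rh genes had estimates of opposite sign. Rhd, on chromosome 4 from 134435724 to 134452087, read 8.23, 7.83, 9.41 and 9.64 in the knockout and 9.87, 9.98, 9.65 and 9.11 in the wildtype. The knockout males lay among the wildtype animals and the knockout females below all of them. The difference over the 8 arrays was -0.88 ± 0.41 (SE), 1.84-fold lower in the knockout (limma, adjusted p = 0.382). Rhag, on chromosome 17 from 40948100 to 40977247, read 7.10, 6.59, 7.93 and 8.70 in the knockout and 6.91, 7.05, 7.09 and 8.04 in the wildtype. Here the 2 highest of the knockout were again the males, and Mim1-5 lay among the wildtype. The difference was 0.31 ± 0.37 (SE), with an interval of -0.52 to 1.14 (limma, adjusted p = 0.734), and it was 0.02 without WT-2 and 0.06 without Mim2-3.

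Kel and Ermap spread more within the knockout than they differed between the genotypes. Kel, on chromosome 6 from 41636333 to 41654288, was dim, with 5.03, 4.68, 6.18 and 6.24 in the knockout and 5.64, 5.85, 5.55 and 5.77 in the wildtype. It exceeded the random probes in 3 of 4 knockout animals, all but Mim1-6, and in 4 of 4 wildtype animals, which makes its difference inexact. The males of the knockout were the highest and its females the lowest of the 8 arrays, and the genotype difference was -0.17 ± 0.32 (SE; limma, adjusted p = 0.840). Ermap, on chromosome 4 from 118848194 to 118862579, read 8.51, 6.03, 9.12 and 7.01 in the knockout and 7.47, 8.11, 8.29 and 6.98 in the wildtype. Its 4 knockout values spread over 3.09 log2 units with no split by labelled sex, and the difference was -0.04 ± 0.66 (SE; limma, adjusted p = 0.983).

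Where a gene had several features, most of them put the knockout females lowest. All 5 Ank1 features did so, and their genotype differences ran from -0.87 to -0.26. Both Rhd features did so too. The dimmer one, which spans 134420419 to 134451920, read 5.10, 5.95, 7.11 and 7.14 in the knockout and 6.82, 6.40, 6.39 and 6.41 in the wildtype. There the males of the knockout lay above every wildtype array, and the difference over 8 arrays was -0.18 (limma, adjusted p = 0.876). The 3 Ermap features disagreed. The brightest, given above, put Mim1-5 second highest of the 8, whereas the feature that starts at 118848064 read 6.30, 6.03, 8.10 and 6.93 in the knockout and 7.10, 7.66, 7.88 and 7.76 in the wildtype, with Mim1-5 and Mim1-6 lowest. The feature that starts at 118848061 read 6.11, 6.03, 7.65 and 7.91 in the knockout against 7.57, 7.18, 6.68 and 7.30 in the wildtype, again with the females of the knockout lowest. The value of Mim1-5 for Ermap thus depends on the feature, 8.51 on the brightest and 6.30 and 6.11 on the others.

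**Figure D2:**
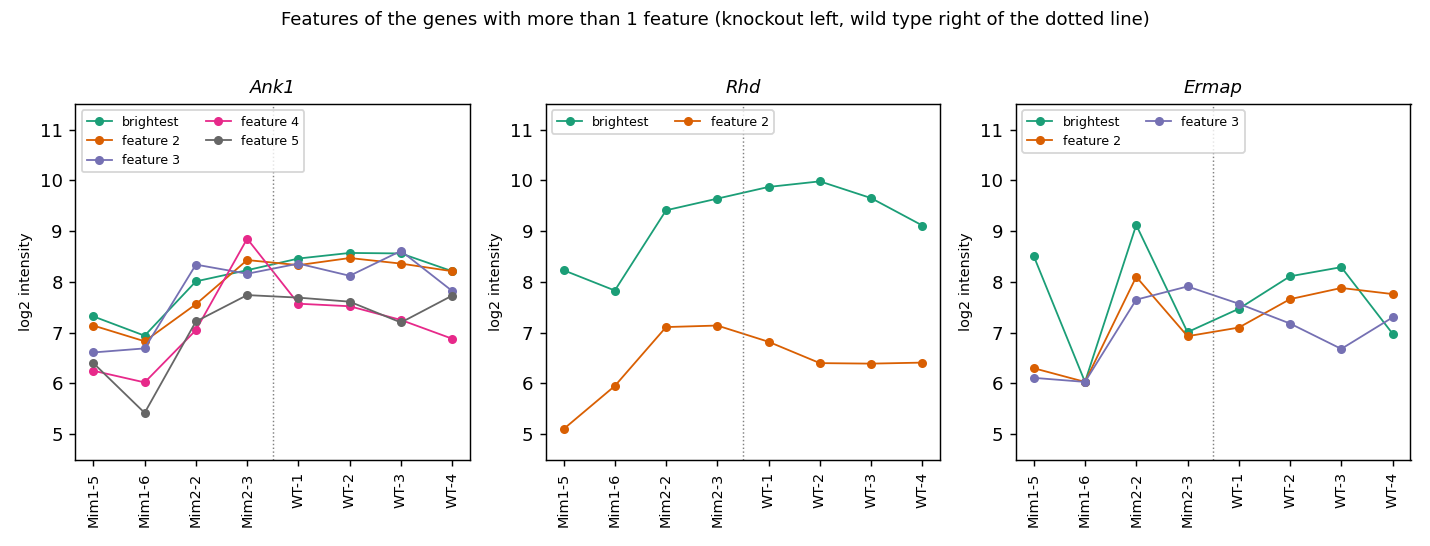
Log2 intensity (vertical axes) of every feature of Ank1, Rhd and Ermap on the 4 knockout arrays, left of the dotted line, and the 4 wildtype arrays, right of it. Lines join the values of 1 feature and carry no order between arrays. All Ank1 and Rhd features are lowest on Mim1-5 and Mim1-6, while the brightest Ermap feature reads 8.51 on Mim1-5.

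The genotype difference was next taken within each labelled sex, with 2 arrays of each genotype. In females all 9 genes read lower in the knockout, with a median difference of -0.75, against a median of 0.03 over all 24171 genes. In males 5 of 9 read lower and 4 higher, with a median of -0.02, against 0.15 over all genes. Among females, Rhd averaged 8.03 in the knockout and 9.76 in the wildtype, a difference of -1.73 ± 0.42 (SE) or 3.33-fold lower. Ank1 averaged 7.13 and 8.51 in knockout and wildtype females, 2.61-fold lower, and Slc4a1 averaged 7.67 and 8.86, 2.29-fold lower. These 2 partners in the membrane skeleton had differences within each other's error, -1.38 ± 0.36 and -1.20 ± 0.53 (SE).

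None of these female differences passed. At an unadjusted p under 0.05 in limma, 3 of 9 genes were lower in knockout females, Rhd, Ank1 and Hbb-b2, where 2.85% of genes were. The adjusted p was 0.961 for each of the 3, and 0% of features had an adjusted p under 0.05. In males 0 of 9 genes had an unadjusted p under 0.05, although 24.2% of all genes did, in either direction. After adjustment some features outside the set did pass in males, such as the keratin gene Krt8 (limma, adjusted p = 0.0216). The lowest adjusted male p among the 9 genes was 0.377, for Rhag (limma). Rhag had the largest male difference of the 9, with a mean of 8.32 in knockout and 7.54 in wildtype males (difference 0.77 ± 0.48, SE). Kel averaged 6.21 and 5.81 in knockout and wildtype males (difference 0.40 ± 0.34, SE).

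The difference between the labelled sexes was then tested itself, as male minus female of the knockout minus wildtype difference. On the knockout side it also sets Mim2 against Mim1, and sex and prefix cannot be told apart. This male minus female difference was positive in all 9 genes and passed in 0 of 9, where 0% of features passed (limma). At an unadjusted p under 0.05 it was positive in 2 of 9 genes, against 5.93% of all genes. These were Rhd, with 1.71 ± 0.59 (SE; limma, adjusted p = 0.285), and Kel, with 1.15 ± 0.48 (SE; limma, adjusted p = 0.367). Ank1 and Slc4a1 had nearly the same value, 1.11 ± 0.51 and 1.10 ± 0.75 (SE), and Hba-a1 the smallest, 0.15 ± 0.49 (SE). The 3 globin genes had values of 0.15 to 0.46 and the 6 membrane genes 0.92 to 1.71, but this separation rested on single arrays, since Slc4a1 had 0.43 without WT-4 and Rhag 0.43 without WT-2. For Rhd and Slc4a1 the knockout females were lowest and the other 3 groups lay close together, with means of 9.52 to 9.76 for Rhd and 8.64 to 8.86 for Slc4a1. For Kel and Rhag the group means were highest in the knockout males and lowest in the knockout females. For Rhag the array ranges of knockout females and wildtype females overlapped. Those of the males overlapped too, with WT-4 at 8.04 above Mim2-2 at 7.93.

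**Figure D3:**
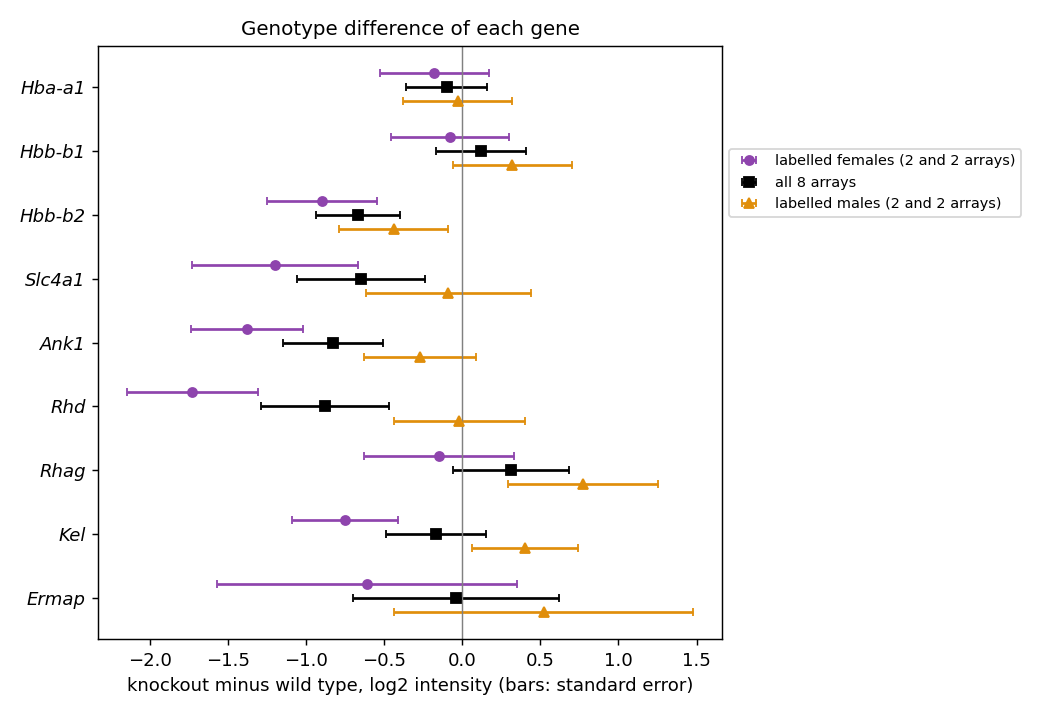
Knockout minus wildtype difference in log2 intensity (horizontal axis) for each gene (vertical axis), from all 8 arrays (squares), from the arrays labelled female (circles) and from those labelled male (triangles). Bars are standard errors from limma. The circles lie left of the triangles in all 9 genes, farthest apart for Rhd, and none of the differences passed the adjusted threshold.

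Other genes of red cell formation, taken from 5 lists, were read in the same fits. Of each list 0 genes passed in limma for the genotype difference over all 8 arrays or for the difference between labelled sexes. Within labelled males the regulator genes Ldb1, Kit and Bcl11a and the heme enzyme gene Ppox did pass. Their male differences were -3.19, -1.90, 1.85 and -2.16 (limma, adjusted p = 0.0233 to 0.0452). Male differences were common on the arrays, with an unadjusted p under 0.05 in 24.2% of all genes (limma). The share of all features passing in males after adjustment was not counted. Of 19 further membrane and skeleton genes, 12 read lower and 7 higher in the knockout, with a median of -0.18 (median over all genes 0.06), and of -0.60 in females and 0.15 in males. In 5 of the 19 both knockout females lay below the other 6 arrays, against 3.48% of all genes. The genes with the smallest p were Bcam, a laminin receptor, Gypc, encoding glycophorin C, the adhesion gene Icam4 and the tetraspanin gene Tspan33, with differences of -1.36, 0.93, -0.91 and -0.84 (limma, adjusted p = 0.262 to 0.335). Gypc alone of these 4 read higher in the knockout.

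The regulators and enzymes behind the globins were mixed. Of 13 erythroid regulators 9 read lower, with a median of -0.51 that was -0.24 without Mim1-6 and -0.31 without WT-1. The median was -0.30 in females and -0.11 in males. Both knockout females lay below the other 6 arrays in 4 of the 13 regulators, against 3.48% of all genes. The leading ones were the transcription factor gene Nfe2 and the erythropoietin receptor gene Epor, with differences of -1.40 and -1.33 (limma, adjusted p = 0.262 and 0.266), and Bcl11a and Lmo2, which are also active in B cells, with 1.32 and 1.11 (limma, adjusted p = 0.262 and 0.274). Ldb1, Kit and Stat5a were low in the knockout males, with differences of -3.19, -1.90 and -1.31 in males against -0.30, 0.16 and -0.14 in females. Klf1, the gene of the CACCC-binding factor, read 7.91, 7.23, 9.32 and 8.94 in the knockout and 8.92, 9.12, 8.58 and 8.81 in the wildtype, lowest in the knockout females. Gata1, the gene of the GATA-binding factor, read 5.69, 6.88, 7.70 and 6.85 in the knockout and 7.26, 6.65, 6.81 and 6.71 in the wildtype, lowest in Mim1-5 alone. These 2 were picked out after their values were seen, because their motifs are shown above.

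Of 11 genes of heme synthesis 9 read lower, with a median of -0.16. In 3 of the 11 the knockout females were the lowest, against 3.48% of all genes. Alas2, which encodes the first enzyme of heme synthesis in erythroid cells, read 11.26, 11.37, 12.53 and 12.96 in the knockout and 13.02, 13.04, 12.08 and 12.65 in the wildtype. Its difference was -0.67, and -1.24 in females, in the same range as the membrane genes (limma, adjusted p = 0.442 over all arrays). The later enzyme genes Ppox, Cpox and Alad had differences of -1.07, -0.57 and -0.43 (limma, adjusted p = 0.347 to 0.555), and Ppox was low in the knockout males, at 6.67 and 6.87, not in the females. Of 11 genes of late erythroid metabolism and iron uptake 10 read lower, with a median of -0.33. Car2, a carbonic anhydrase, had the smallest p of them, with 10.96, 10.60, 11.14 and 11.81 in the knockout and 12.40, 12.23, 12.07 and 12.06 in the wildtype, where the genotypes did not overlap (difference -1.06, limma adjusted p = 0.274). The antioxidant gene Gclm, the mitophagy gene Bnip3l and the pyruvate kinase gene Pklr differed by -0.47, -0.34 and -0.51 (limma, adjusted p = 0.507 to 0.608).

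The embryonic globins, which adult spleen makes little of, were dim. Of 5 measured genes in the list of other globins, 3 did not exceed the random probes on 1 or more arrays. In 0 of 5 were the knockout females lowest, against 3.48% of all genes. Hba-a2, the second alpha globin gene, read 15.62, 15.55, 15.63 and 15.71 in the knockout and 15.51, 15.87, 15.83 and 15.76 in the wildtype. It differed by -0.11 (limma, adjusted p = 0.870), close to Hba-a1. Its feature is placed from 32183671 to 32184493 on chromosome 11, around the stretch given for Hba-a1, so the 2 may not be separate readings. Hbb-bh2 differed by 0.90, Hbb-y by 0.24 and Hbb-bh1 by -0.11 (limma, adjusted p = 0.307, 0.897 and 0.915).

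Markers of other cells also stood at different levels in the 2 genotypes, except that list means overlapped for red pulp macrophages and cell cycle genes. Their part in the result was not tested. Neutrophil markers had a mean log2 level of 7.22 to 7.99 in the knockout and 8.05 to 8.71 in the wildtype. Both knockout females lay below the other 6 arrays in 4 of 9 neutrophil markers, against 3.48% of all genes. Red pulp macrophage markers stood at 9.06 to 10.01 and 8.57 to 9.13 in knockout and wildtype, with 9 of 10 higher in the knockout. B cell markers stood at 9.35 to 10.30 in the knockout and 8.27 to 8.79 in the wildtype, with 8 of 9 higher. Megakaryocyte and platelet markers, of the lineage nearest to the erythroid one, stood at 7.37 to 7.61 in the knockout and 6.84 to 7.20 in the wildtype, with 9 of 10 higher and 0 of 10 lowest in the knockout females. Mammary epithelium markers stood at 8.01 to 10.73 in the knockout and 11.42 to 11.71 in the wildtype, with 12 of 12 lower, and were lowest in the knockout males. T cell markers stood at 8.68 to 9.30 in the knockout and 7.94 to 8.60 in the wildtype, and pancreatic acinar markers at 7.16 to 8.22 and 5.77 to 6.03. Cell cycle genes stood at 8.20 to 10.15 in the knockout and 9.36 to 10.05 in the wildtype, with 13 of 13 lower over the 8 arrays. Their mean was highest on Mim1-6, and their median difference was 0.05 in females and -1.14 in males. Of these lists 0 genes failed to exceed the random probes on all 8 arrays at once. In limma 0 passed for the genotype difference over all 8 arrays or for the difference between labelled sexes. Within labelled males several passed, among them the mammary epithelium genes Krt8, Cldn3 and Elf5, with -3.74, -4.87 and -3.93 (limma, adjusted p = 0.0216 each). Cr2, Amy2b and Ccnb2, of the B cell, pancreatic and cell cycle lists, had 2.77, 4.48 and -1.97 (limma, adjusted p = 0.0225 to 0.0306). In males 24.2% of all genes had an unadjusted p under 0.05 (limma), and the share passing after adjustment was not counted.

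**Figure D4:**
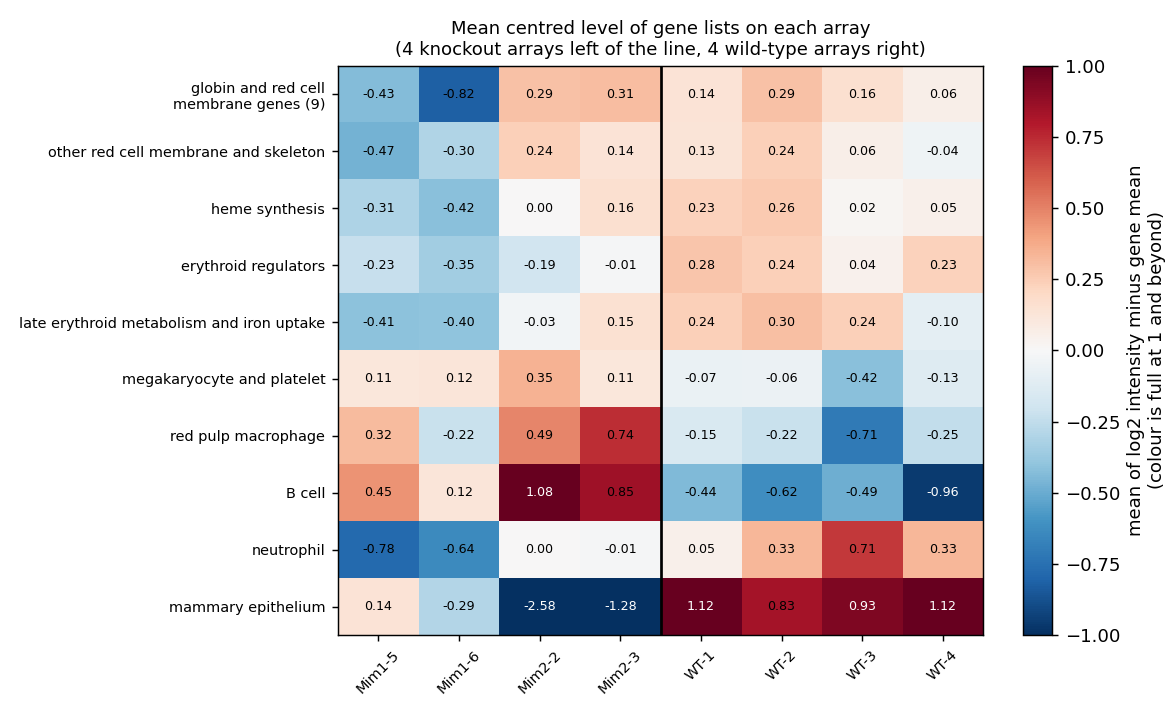
Mean over the genes of each list (rows) of log2 intensity minus the mean of that gene over the 8 arrays, for the 4 knockout arrays (left of the line) and the 4 wildtype arrays (right). The set stands at -0.43 and -0.82 in Mim1-5 and Mim1-6 and at 0.06 to 0.31 on the other 6 arrays. The 4 erythroid lists drawn below it are also lowest on those 2 arrays. So is the neutrophil list, at -0.78 and -0.64, so the low level there is not particular to red cell genes. The list of other globins is not drawn and did not share this, with 0.35 and -0.12 in Mim1-5 and Mim1-6.

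The genes whose pattern over the 8 arrays came nearest to the set were found by distance. The profile was the mean, over the 8 genes above the random probes on all 8 arrays, of log2 values centred on each gene, and it read -0.41, -0.81, 0.26 and 0.27 in the knockout and 0.15, 0.30, 0.19 and 0.04 in the wildtype. The root mean square difference from it ran from 0.133 to 0.155 log2 units for the nearest 10 of 24162 other genes, against a median of 0.671. A gene with the same value on all arrays would lie at 0.374, so the measure favours genes that vary little. Uros, which encodes an enzyme of heme synthesis, was nearest at 0.133, and Blvrb, encoding a biliverdin reductase abundant in red cells, followed at 0.143, and these 2 were in the erythroid lists. The others were Lsm7, Ighg3, 2410080I02Rik, Gm13182, Acaa1a, Uxt, Rpl35a-ps7 and Polr2l, which include genes of RNA processing, an immunoglobulin chain and a ribosomal pseudogene. In 9 of the 10 the knockout females were the lowest of the 8 arrays, which follows from how they were chosen. The distance was taken over 8 arrays only and carries no test.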

How the data were processed

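RNA from 8 samples labelled as spleen was measured on 1-colour NimbleGen arrays, 4 knockout and 4 wildtype. The authors deposited 1 table per array with a linear intensity for each of 44170 features, made with RMA per the submitters' processing notes, which name no version. RMA removes background, equalises arrays and merges probes into features. Per the file headers, positions are in build MM9, and 44155 features rest on 3 probes. A standard error score, also deposited by the authors, was not used. A deposited series table holds the same intensity values for 21856 features.

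Values were transformed to log2. Members were matched by the gene name in the files, and list genes by current symbol, through 21583 of 24203 Entrez numbers found in the RefSeq table of GRCm38.p6. limma 3.58.1 in R 4.3.3 (lmFit, eBayes, two-sided) fitted genotype with labelled sex as an additive term, and genotype by sex for differences within and between sexes. Benjamini-Hochberg adjustment ran over all 44170 features, with a threshold of 0.05. The fit was tested on simulated data. Members and lists were chosen with earlier results of these data known. All 9 members are named, the 4 genes of smallest p per list (other list genes are named after their values were seen), and the 10 nearest by profile. Nothing says how the samples were paired or batched. The labels describe separate mice, and the number of arrays limits the precision.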

Additional observations from a re-analysis of the deposited data

Results flagged for a closer look

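In 3 of the genes named by rule, 1 wildtype array stood far from the other 3, in each case that of WT-4. Rhag read 8.04 in WT-4 against 6.91 to 7.09 in the other wildtype animals. Bcam read 10.72 in WT-4 against 9.97 to 10.08 in the others, and Epor 9.73 against 8.60 to 8.77. The gap to the nearest array, divided by the range of the 4 values, was above Dixon's critical value for 4 samples. Of 58 groups checked 3 had such a gap, and chance gives one in about 1 of 20 groups. WT-4 also had the lowest wildtype values of Slc4a1, Ank1 and Rhd, at 8.06, 8.21 and 9.11.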

How the results depend on the processing

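The count of members passing was 0 of 9 for the genotype difference and for the difference between sexes under all alternatives that gave a value, namely no sex term, another variance model, array weights, quantile or median scaling, a filter or floor at the random probes, the mean over features, the series table (which holds 8 members, not Kel) and leaving out arrays. The sex difference could not be fitted without the sex term or without both Mim1 or both Mim2 arrays. The 5 lists also kept a count of 0 for the genotype difference, but leaving out 1 array moved their medians. The membrane list ran over -0.30 (without WT-4) to -0.08 (without WT-3) and heme synthesis over -0.46 (without WT-4) to -0.12. Regulators ran over -0.63 to -0.24 (without Mim1-6). Late erythroid genes ran over -0.41 to -0.25 and other globins over -0.13 to 0.16 (without Mim1-6). With trend and robust variance 16 features passed, and without both Mim1 arrays, an alternative chosen after seeing the data, 263 passed, none a member. The median difference of the 9 genes, -0.17, was -0.75 without both Mim2 arrays, where the fit gives the female difference, and -0.02 without both Mim1 arrays. Leaving out 1 array gave -0.58 (without Mim2-2) to -0.09 (without WT-1). Small differences changed sign. Hbb-b1 was -0.08 and Rhag -0.15 without both Mim2 arrays, Kel 0.40 and Ermap 0.52 without both Mim1 arrays, and Ermap 0.04 with array weights. Leaving out 1 array moved Hbb-b1 over -0.02 to 0.21 (negative without Mim2-3 or WT-2), Rhag over 0.02 (without WT-2) to 0.50, Kel over -0.30 to 0.01 (positive without Mim1-6) and Ermap over -0.58 (without Mim2-2) to 0.56 (without Mim1-6), and the sex difference of Hba-a1 over -0.03 (without Mim2-3) to 0.34 and of Ermap over -0.11 (without Mim1-6) to 2.36 (without Mim1-5). That of Slc4a1 ran over 0.43 to 1.78, of Rhag over 0.43 to 1.42 and of Hbb-b1 over 0.14 to 0.66. Hbb-b2, Slc4a1, Ank1 and Rhd stayed negative when 1 array was left out, at -0.77 to -0.56, -1.03 to -0.37, -1.01 to -0.64 and -1.22 to -0.63. The cause of these moves was not tested. No paired analysis was possible because nothing in the labels ties the numbers in the animal names to a litter, batch or day, and the replicate numbers of the knockout only follow the order of deposit. Kel near the random probes and the globins near the top of the scale have limited range.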
